A study of Anser cygnoides with 6 samples.

Results

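The ATP-binding cassette (ABC) genes of the goose liver were taken as every gene model whose deposited description contains the words "ABC transporter" or "ATP-binding cassette" in any case. The rule found 48 of the 21009 gene models in the mRNA table, and all 48 came from the first phrase. It uses words of the description only and no measured value. Liver RNA was sequenced from 6 adult lion-head geese (a large purebred Chinese breed of Anser cygnoides), with 3 birds fed normally and 3 fed at high intake, 1 library per bird. The normally-fed geese ate at will, whereas those on high intake received several forced meals daily for over a month, on a diet that included boiled rice, as in the production of foie gras. All birds were fasted overnight before sacrifice. Each feeding group was kept in an isolator of its own, so feeding and housing cannot be told apart, and the sources used here do not give the sex of the 6 birds.

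ABC proteins couple the binding and hydrolysis of ATP to the movement of a substrate across a membrane. In vertebrates, subfamily A moves mostly lipids and sterols, and subfamily B holds bile salt, phospholipid, mitochondrial and peptide carriers. Subfamily C exports organic anions and conjugates, subfamily D mostly imports fatty acyl-CoA into peroxisomes and subfamily G exports sterols and other compounds. In the hepatocyte several of them stand in the canalicular membrane, where together they form bile. Not every member transports: the single subfamily E model is an RNase L inhibitor, known from yeast and mammals as a factor that splits ribosomes after translation, and 3 models carry ABC ATPase domains with no membrane region named.

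By the domain and protein names of the table, 9 models belonged to subfamily A, 16 to B, 10 to C, 3 to D, 1 to E and 6 to G, with 3 left without a subfamily. Names of single genes are used below only where the description gives one. The others are called by their domain and scaffold, with positions as the table gives them on a genome build that the sources used here do not name, and whether a position is exonic or lies in an untranslated region was not analysed here. Levels are CPM, counts per 1000000 of the library size by the TMM factors of edgeR, and CPM per kb divides them by the coding length, since only that scale compares genes. Triplets of values are in the order of birds 1, 2 and 3 of a group. Libraries held 14154910 to 16993373 counts, of which the members took 53468 to 71982. In bulk tissue, fewer cells of a type and less RNA per cell cannot be told apart.

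With edgeR, the test used throughout, the called differences lay in a head-to-head pair of subfamily G models on scaffold 3. They are half-transporters with the White domain, a domain named after a fly eye pigment transporter. The minus-strand model at chr3:100081910-100094392 and the plus-strand model at chr3:100094504-100112244 faced each other across 111 bases, with no other model between them. In the RefSeq annotation of another goose assembly, ABCG5 and ABCG8 are listed as direct neighbours. In mammals these are the subunits of the sterol exporter of the canalicular membrane. The deposited table gives neither symbol, so the models are called by their strand here.

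The minus-strand White model measured 91.5, 86.3 and 104.9 CPM in the normally-fed geese and 10.8, 13.95 and 22.7 CPM in the high-intake-fed geese. Every high-intake-fed bird was far below every normally-fed bird. The mean was 94.3 ± 9.60 CPM (SD, n = 3) against 15.8 ± 6.12 CPM (SD, n = 3), and the model fell by 2.57 ± 0.30 (SE) on the log2 scale (edgeR adjusted p = 0.0112). The plus-strand White model measured 106.9, 83.1 and 126.4 CPM under normal feeding and 46.6, 33.9 and 37.4 CPM under high intake. Here too the groups did not overlap. It fell by 1.42 ± 0.24 on the log2 scale (edgeR adjusted p = 0.0361), from 105.5 ± 21.7 to 39.3 ± 6.58 CPM (SD, n = 3 each). Neither call was kept under every alternative: without normally-fed replicate 3 the edgeR adjusted p was 0.0597 for the minus-strand and 0.180 for the plus-strand model. The plus-strand call was kept without high-intake-fed replicate 3 (0.0429) and lost without normally-fed replicates 1 and 2 (0.127 and 0.103) or high-intake-fed replicates 1 and 2 (0.0640 and 0.0696).

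Ratios between members were formed per kb of coding length, within a bird and after the values had been seen. The minus-strand model stood at 0.813, 0.987 and 0.789 times the plus-strand model in the normally-fed birds and at 0.221, 0.391 and 0.575 times in the high-intake-fed birds. The high-intake-fed ratios were all lower, with bird 3 the nearest to the normally-fed range. The log2 ratio averaged -0.22 ± 0.18 (SD, n = 3) against -1.44 ± 0.69 (SD, n = 3). With a two-sided exact permutation p of 0.1, the smallest that 3 birds against 3 can give, no ratio of this kind can be called different.

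**Figure D1:**
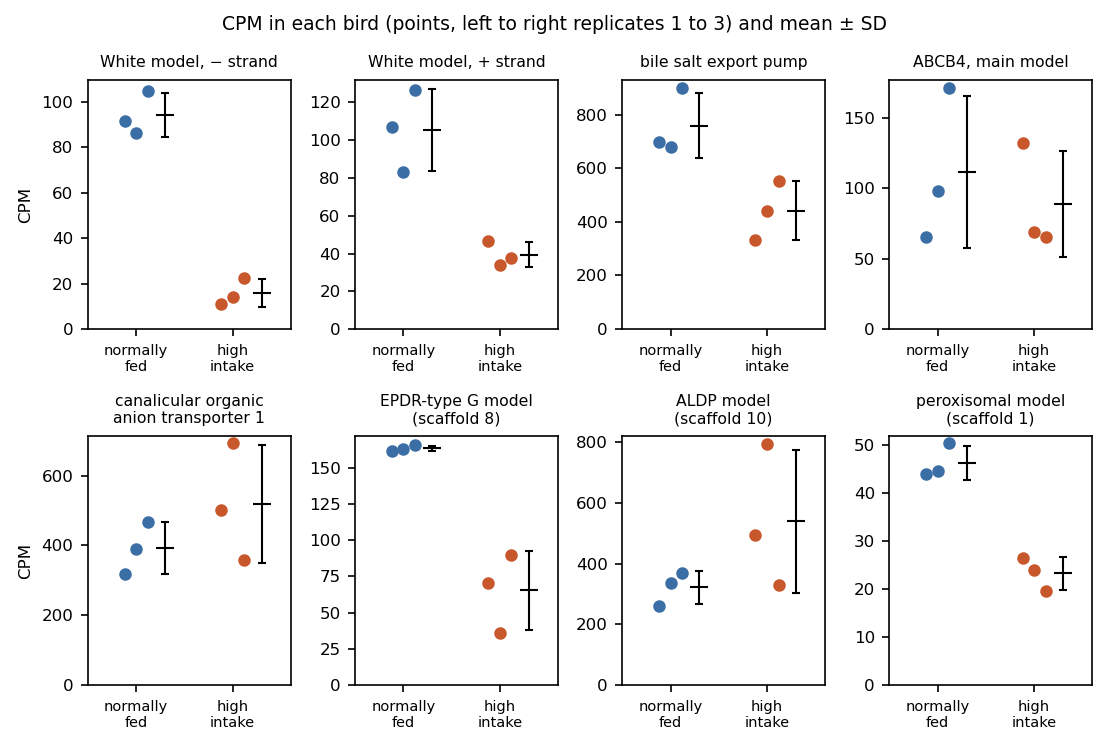
CPM of 8 ABC models (vertical axes from 0, one scale per panel) in each normally-fed (blue) and high-intake-fed (orange) goose, replicates 1 to 3 from left to right, with black marks for the mean ± SD (n = 3). The 2 White models, the bile salt export pump, the EPDR-type model of scaffold 8 and the peroxisomal model of scaffold 1 have no overlap between the groups, and the other 3 panels overlap.

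Across the family, 43 of the 48 members passed the filter on low counts and were tested. Of these, 2 fell and 0 rose at an edgeR adjusted p under 0.05, the White pair being the 2. Over all 12914 mRNAs tested the same rule called 0.829% lower and 0.643% higher, 1.47% in all. At an unadjusted p under 0.05, 9 members were lower and 2 higher, against 9.71% and 8.67% of all mRNAs. At a change of over 2-fold with an unadjusted p under 0.05, 4 members were lower and 1 higher, against 5.33% and 4.26% of all mRNAs. With DESeq2, 6 of the 43 members with an adjusted p were lower and 1 was higher, against 3.82% and 3.49% of the 12906 mRNAs with one. The groups did not overlap for 9 members lower in high-intake-fed geese and 3 higher, where 13.3% and 11.1% of all mRNAs tested were lower or higher without overlap. The median log2 fold change of the 43 was -0.12, beside 0.04 over all mRNAs tested, with 25 below 0 and 18 above it, where 47.2% and 52.8% of all mRNAs lay below and above.

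Summed over all 48 members, the level was 3547, 3776 and 4636 CPM in the normally-fed geese and 4079, 4225 and 4064 CPM in the high-intake-fed geese. The high-intake-fed sums lay within the range of the normally-fed ones. The sum of subfamily G was 372, 341 and 410.2 CPM against 137, 97.9 and 164 CPM, with no overlap. Of this, the White pair made up 198, 169 and 231 CPM against 57.5, 47.8 and 60.1 CPM. Subfamily B summed to 932, 971 and 1274 CPM against 670, 769 and 786 CPM, also lower without overlap. The largest single part of that sum was the bile salt export pump, at 699, 679.6 and 901 CPM against 334, 439.9 and 554 CPM. Of 12 subfamily B models tested, 1 was lower and 1 higher without overlap. Subfamily D summed to 310.3, 386 and 424 CPM against 526, 821 and 356 CPM, and these overlapped. The plot of fold changes by subfamily shows this spread, with members on both sides of 0 in subfamilies A, B, C, D and G.

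**Figure D2:**
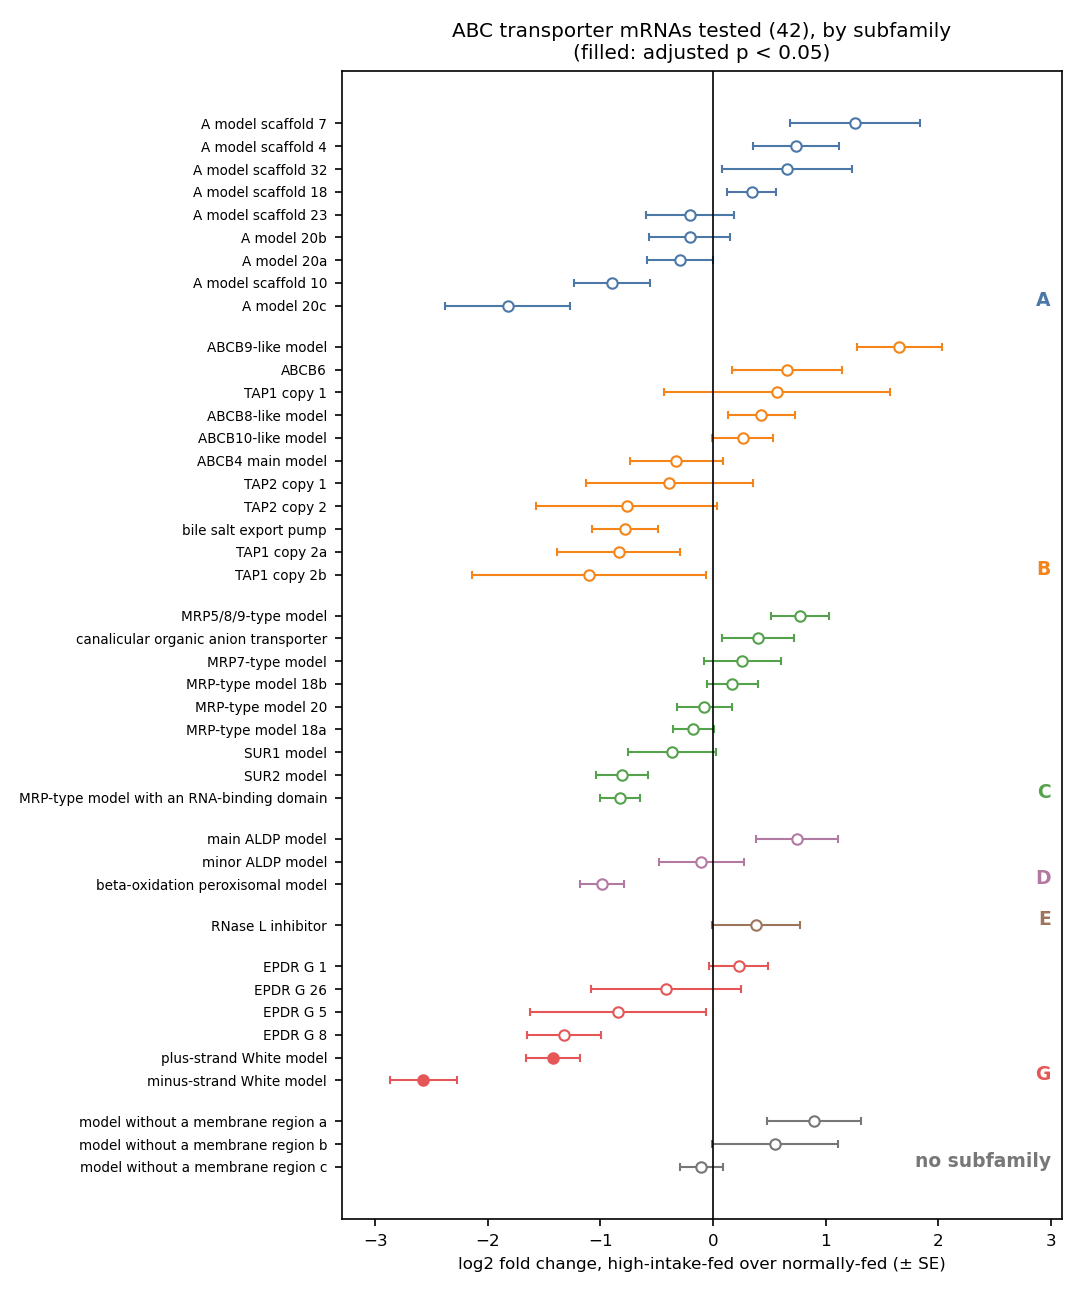
The log2 fold change (high-intake-fed over normally-fed, horizontal axis) of 42 tested members with its SE as a bar, grouped by subfamily from A to G, and filled where the edgeR adjusted p was under 0.05. Only the White pair of subfamily G is filled, at -1.42 and -2.57, and the highest point is the ABCB9-like model at 1.66.

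The members differed widely in level. Per kb of coding length the mean over 6 birds ran from 0.0894 to 203 CPM per kb, with a median of 9.32 CPM per kb among the 43 tested, beside 11.3 for all mRNAs tested. The 5 highest members were an ALDP-type peroxisomal model (203 CPM per kb), the bile salt export pump (144), the RNase L inhibitor (117.9), the subfamily A model of scaffold 4 (117.8) and canalicular multispecific organic anion transporter 1 (97.9). Together they carried 61.6% of the CPM of the family. Further abundant members were an EPDR-type subfamily G model (54.2 CPM per kb), the plus-strand White model (37.3), an MRP-type model of scaffold 18 (34.9) and the MRP5_8_9 model of scaffold 11 (28.6). The minus-strand White model followed them at 27.0 CPM per kb.

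**Figure D3:**
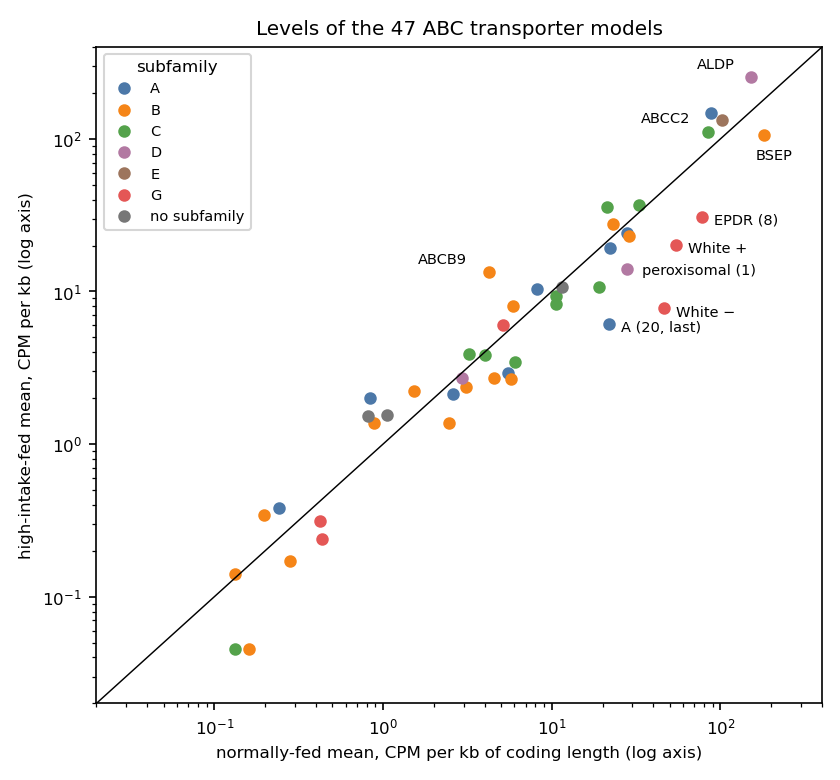
Mean level of each of 47 models in normally-fed geese (horizontal) and high-intake-fed geese (vertical), in CPM per kb of coding length on log axes, coloured by subfamily, with the line of equal levels. The peroxisomal ALDP model is the highest, with a mean of 203 CPM per kb over both groups, and the White pair, the EPDR-type model of scaffold 8 and the last A model of scaffold 20 lie farthest below the line among the abundant members.

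At the canaliculus, the bile salt export pump (ABCB11 in mammals, at chr7:20374191-20413316) drives bile salts out of the hepatocyte. It measured 699, 679.6 and 901 CPM in normally-fed geese and 334, 439.9 and 554 CPM in high-intake-fed geese. All high-intake-fed birds were below all normally-fed birds. The log2 fold change was -0.78 ± 0.29 (SE) with an unadjusted p of 0.0290 and an edgeR adjusted p of 0.215, so it did not pass.

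Phosphatidylcholine translocator ABCB4 flips phospholipid into bile. The RefSeq annotation of another goose assembly lists no gene of that name, so its use here rests on the deposited descriptions. In these the name is on 4 models in a row on the minus strand of scaffold 2, from 24808508 to 24902427. The longest of them, with a coding length of 3873 bases, measured 65.5, 98.0 and 171 CPM against 132, 69.2 and 65.2 CPM. The groups overlapped, and the log2 fold change was -0.33 ± 0.41 (edgeR adjusted p = 0.731). The other 3 models had 0 to 13 counts in every library and were not tested. ABC transporter B family member 5, a relative of the multidrug pumps on the same scaffold, had 0 to 15 counts and was not tested either.

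Canalicular multispecific organic anion transporter 1 (ABCC2 in mammals, at chr8:15391275-15408345) exports conjugated bilirubin and glutathione conjugates. Its levels were 318, 391 and 468 CPM in the normally-fed birds and 501, 695 and 358 CPM in the high-intake-fed birds. The third high-intake-fed bird was within the normally-fed range, and the log2 fold change was 0.40 ± 0.32 (edgeR adjusted p = 0.563). Per kb it stood at 0.409, 0.517 and 0.467 times the bile salt export pump in the normally-fed and at 1.35, 1.42 and 0.581 times in the high-intake-fed geese. These ratios did not overlap, and their difference could not be called (two-sided exact permutation p = 0.1, the smallest possible).

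The EPDR-type subfamily G models carry a domain name of eye pigment and drug resistance transporters. The most abundant of the 4 lay at chr8:20180742-20194219, and its Reactome terms include haem degradation. It measured 162, 163 and 165 CPM under normal feeding, a spread of 1.87 CPM (SD, n = 3), and 70.4, 35.96 and 89.5 CPM under high intake. No high-intake-fed bird reached the normally-fed level. The log2 fold change was -1.32 ± 0.33 with an edgeR adjusted p of 0.0980, which did not pass. With 1 bird left out that p ran from 0.0456 (without high-intake-fed replicate 3) to 0.292 (without normally-fed replicate 2). The EPDR-type model of scaffold 1 measured 9.62, 7.73 and 11.9 CPM against 9.03, 13.4 and 11.9 CPM, which overlapped (log2 fold change 0.23 ± 0.26). The model of scaffold 5 stood at 1.39, 0.354 and 1.22 CPM against 0.278, 0.254 and 1.09 CPM, and that of scaffold 26 at 0.995, 1.004 and 0.451 CPM against 0.278, 0.444 and 1.09 CPM. Both were low and overlapped, with log2 fold changes of -0.84 ± 0.78 and -0.42 ± 0.67 that did not pass.

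Peroxisomal ABC half-transporters bring long-chain and very-long-chain fatty acyl groups in for beta-oxidation. Of 3 subfamily D models, the ALDP-type model of scaffold 10 (chr10:1950447-1978328, annotated to long-chain fatty acid import) was the highest member of the family per length. It measured 259.7, 337 and 367 CPM in the normally-fed geese and 495, 794 and 328 CPM in the high-intake-fed geese. Birds 1 and 2 of the high-intake-fed group were above all normally-fed birds and bird 3 was not, and the log2 fold change was 0.75 ± 0.36 (edgeR adjusted p = 0.321).

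The peroxisomal model of scaffold 1 (chr1:201033201-201046963) carries the terms for very-long-chain fatty acids and beta-oxidation. Its values were 44.0, 44.6 and 50.4 CPM against 26.4, 23.98 and 19.6 CPM. The high-intake-fed birds were all lower and the groups did not overlap. The log2 fold change was -0.99 ± 0.20 and the edgeR adjusted p 0.0564, just outside the threshold. It came to 0.0402 and 0.0396 with library sizes left unscaled or summed without the 20 most abundant mRNAs. With 1 bird left out it ran from 0.0463 (without high-intake-fed replicate 3) to 0.244 (without normally-fed replicate 3). A second ALDP-type model, on scaffold 6, stood at 6.63, 4.90 and 5.73 CPM against 3.89, 3.74 and 8.38 CPM and overlapped. Per kb the model of scaffold 10 was at 4.62, 5.92 and 5.71 times the model of scaffold 1 in the normally-fed birds and at 14.7, 25.9 and 13.1 times in the high-intake-fed birds. The ratios did not overlap, and their difference could not be called (two-sided exact permutation p = 0.1, the smallest possible).

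Subfamily A holds full transporters with long coding sequences, several of which move cholesterol and phospholipid in mammals. The model of scaffold 4 (chr4:35444642-35518949) was the most abundant, at 461, 556 and 787 CPM against 1153, 569.7 and 1277 CPM. High-intake-fed birds 1 and 3 exceeded the normally-fed birds and bird 2 lay among them, with a log2 fold change of 0.73 ± 0.38 (edgeR adjusted p = 0.357).

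On scaffold 20, 3 subfamily A models followed each other on the plus strand from 2782145 to 2861241, with no other model between them. The first, annotated to cholesterol transport, measured 14.19, 13.3 and 11.1 CPM against 8.82, 7.67 and 15.002 CPM. The second measured 147, 119 and 146 CPM against 96.4, 71.3 and 189 CPM. In both, high-intake-fed birds 1 and 2 were below and bird 3 above all normally-fed birds. The last measured 111, 77.2 and 102.5 CPM against 18.3, 9.96 and 53.7 CPM, and in it no high-intake-fed bird reached the normally-fed range. Its log2 fold change was -1.83 ± 0.55 with an unadjusted p of 0.0109 and an edgeR adjusted p of 0.147. With 1 bird left out the latter ran from 0.0188 (without high-intake-fed replicate 3) to 0.336 (without normally-fed replicate 3). Per kb the last model stood at 0.835, 0.713 and 0.775 times the second in the normally-fed and at 0.210, 0.154 and 0.313 times in the high-intake-fed geese. These ratios did not overlap, and their difference could not be called (two-sided exact permutation p = 0.1, the smallest possible).

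**Figure D4:**
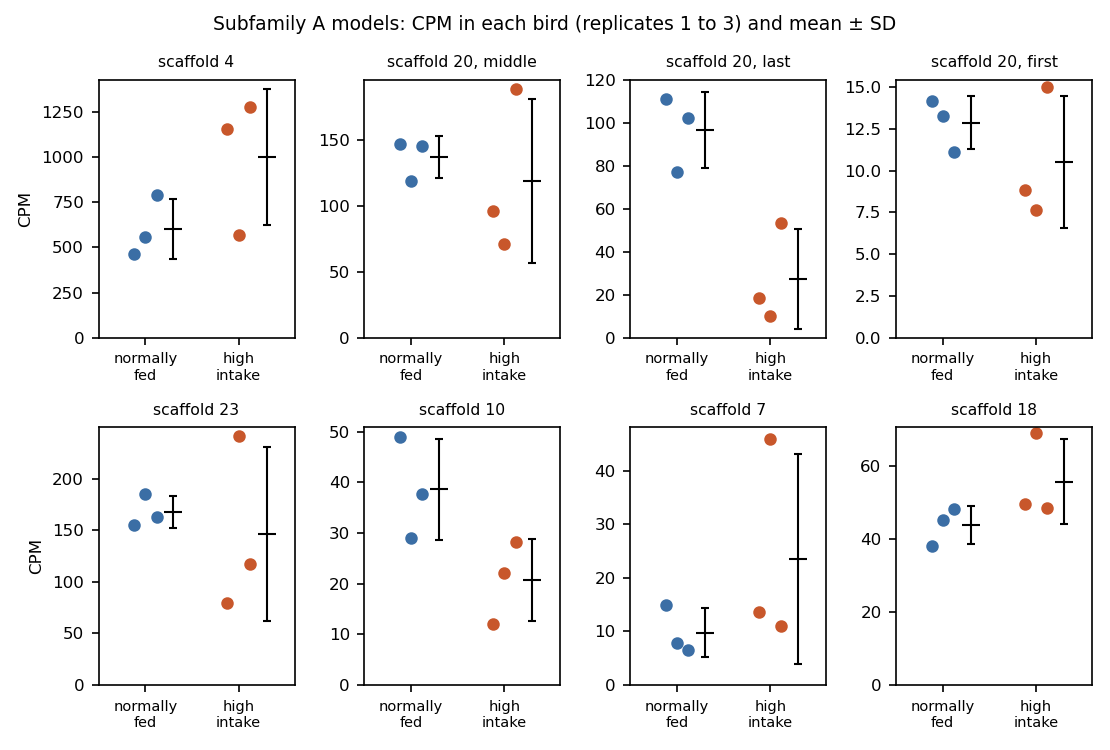
CPM of 8 of the 9 subfamily A models (vertical axes from 0, one scale per panel) in each normally-fed (blue) and high-intake-fed (orange) goose, replicates 1 to 3 from left to right, with the mean ± SD (n = 3) in black. The last model of scaffold 20 and the model of scaffold 10 are lower in all 3 high-intake-fed birds, and in all 3 scaffold 20 models high-intake-fed bird 3 is the highest of its group.

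Among the other subfamily A models, the one of scaffold 10 measured 49.0, 29.1 and 37.7 CPM against 12.02, 22.01 and 28.2 CPM. The groups did not overlap, although bird 2 of the normally-fed and bird 3 of the high-intake-fed group were close (log2 fold change -0.90 ± 0.34, unadjusted p 0.0288, edgeR adjusted p = 0.214). The model of scaffold 18, annotated to surfactant metabolism, measured 38.2, 45.2 and 48.4 CPM against 49.5, 69.1 and 48.6 CPM, higher without overlap by a narrow margin (log2 fold change 0.34 ± 0.22, edgeR adjusted p = 0.452). That of scaffold 7, annotated to lipid transport, stood at 14.99, 7.85 and 6.57 CPM against 13.5, 46.1 and 10.9 CPM, where bird 2 alone was above the normally-fed range. The models of scaffolds 23 and 32 had log2 fold changes of -0.20 ± 0.39 and 0.65 ± 0.58 and overlapped.

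Mitochondrial members of subfamily B serve haem and iron-sulphur cluster synthesis. ABCB6, the ABCB8-like and the ABCB10-like models had log2 fold changes of 0.66 ± 0.49, 0.43 ± 0.30 and 0.26 ± 0.27, and none passed. The ABCB9-like model (chr17:3507064-3520636), which is annotated to peptide transport in the lysosomal membrane, measured 10.3, 9.68 and 15.2 CPM in normally-fed geese and 22.7, 57.8 and 30.4 CPM in high-intake-fed geese. It was higher in all 3 high-intake-fed birds. Its log2 fold change of 1.66 ± 0.37 was the highest of the family, but the edgeR adjusted p of 0.0780 did not pass, and it came to 0.0361 without the filter on low counts and to 0.0666 to 0.264 with 1 bird left out.

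The antigen peptide transporters TAP1 and TAP2 carry peptides into the endoplasmic reticulum for display on class I molecules. The table holds them as 2 copies on scaffold 36 that run in the same arrangement, 183210 bases apart, with TAP1 of the second copy split into 2 models. The RefSeq annotation of another goose assembly lists 1 gene of each name. The share of TAP1 counts in the first copy was 9.09%, 5.41% and 62.4% in the normally-fed birds and 11.8%, 94.7% and 38.0% in the high-intake-fed birds. For TAP2 it was 28.5%, 25.3% and 63.1% against 18.4%, 96.6% and 20.7%. The share varied widely between birds of both groups, with normally-fed bird 3 and high-intake-fed bird 2 high in the first copy for both genes. No source used here says how reads that fit both copies were counted, so the values of single copies are uncertain. None of the 5 models passed the test.

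Summed over both copies, TAP1 stood at 10.9, 13.1 and 11.98 CPM in the normally-fed and 7.64, 9.51 and 9.60 CPM in the high-intake-fed geese. TAP2 summed to 13.3, 16.8 and 18.5 CPM against 9.80, 11.4 and 10.9 CPM. In these sums, which were formed after the values of the copies had been seen, all high-intake-fed birds were below all normally-fed birds. The two-sided exact permutation p was 0.1 for each, the smallest possible.

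**Figure D5:**
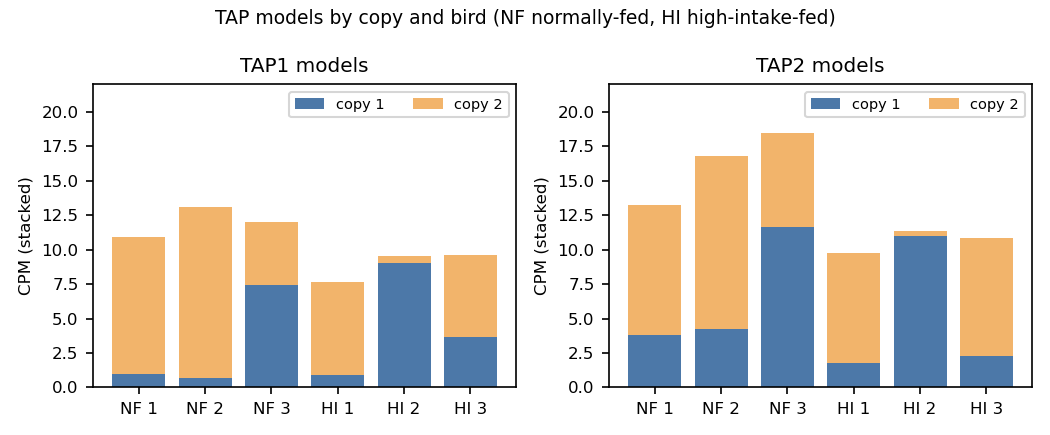
CPM of the TAP1 models (left) and TAP2 models (right) in each goose, stacked by copy (blue for the first copy, orange for the second), with NF for normally-fed and HI for high-intake-fed and the replicate number. The first copy holds 94.7% and 96.6% of the counts in HI 2 but 5.41% and 25.3% in NF 2, while the summed heights run from 7.64 to 13.1 CPM for TAP1 and from 9.80 to 18.5 CPM for TAP2.

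In subfamily C, the multidrug resistance-associated (MRP) models export conjugates and other organic anions. The MRP5_8_9 model of scaffold 11 (chr11:17495299-17535840), whose terms include hyaluronan export, measured 100.6, 82.3 and 97.5 CPM against 116.6, 203 and 158 CPM. It was higher in every high-intake-fed bird (log2 fold change 0.77 ± 0.26, unadjusted p 0.0173, edgeR adjusted p = 0.173). An MRP-type model at chr1:134777610-134823946, whose description also names an RNA-binding domain, measured 73.8, 70.2 and 80.2 CPM against 39.5, 42.2 and 44.8 CPM. The groups were tight and did not overlap, and the log2 fold change was -0.83 ± 0.18 with an edgeR adjusted p of 0.0709. Such a description can join 2 genes in 1 model, which was not tested. With 1 bird left out its edgeR adjusted p ran from 0.0445 (without high-intake-fed replicate 3) to 0.288 (without normally-fed replicate 3).

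The MRP-type models of scaffold 18 lay tail to tail, 3880 bases apart. The more abundant of them measured 118, 129.6 and 167 CPM against 172, 144 and 151 CPM and the other 42.8, 48.7 and 53.6 CPM against 39.0, 45.7 and 44.0 CPM. Both overlapped, with log2 fold changes of 0.17 ± 0.23 and -0.17 ± 0.19. The MRP-type model of scaffold 20 and the MRP7 model of scaffold 3 had log2 fold changes of -0.08 ± 0.25 and 0.26 ± 0.34.

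The sulphonylurea receptors are subfamily C proteins that regulate potassium channels. SUR2 (chr1:139733877-139822536) measured 30.05, 23.97 and 35.5 CPM in normally-fed and 15.01, 15.7 and 20.3 CPM in high-intake-fed geese, without overlap (log2 fold change -0.81 ± 0.23, unadjusted p 0.00753, edgeR adjusted p = 0.125). SUR1 measured 49.2, 43.3 and 50.4 CPM against 42.1, 15.9 and 53.0 CPM and overlapped. CFTR, a chloride channel of bile duct cells in mammals, had 2 to 19 counts per library and was not tested.

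Outside the transporters, the RNase L inhibitor measured 141, 195 and 216 CPM against 325, 279.8 and 116.6 CPM. High-intake-fed birds 1 and 2 were above and bird 3 below all normally-fed birds (log2 fold change 0.38 ± 0.39, edgeR adjusted p = 0.661). The 3 models without a membrane region had log2 fold changes of 0.90 ± 0.42, 0.55 ± 0.56 and -0.10 ± 0.19, and each overlapped.

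The genes that work with these transporters were read from 5 lists, in which genes that share a description count as 1 entry. For comparison, 0.829% of all mRNAs tested fell and 0.643% rose at an edgeR adjusted p under 0.05. At an unadjusted p under 0.05 the shares were 9.71% lower and 8.67% higher, and the median log2 fold change over all was 0.04. Of the bile acid synthesis and uptake list, 11 of 19 entries matched, and of 16 models tested 1 fell and 0 rose, with a median log2 fold change of -0.84. The one that fell was CYP7A1, the rate-limiting enzyme of bile acid synthesis, at 96.1, 140.5 and 24.5 CPM against 0.486, 2.47 and 0.425 CPM (log2 fold change -6.25 ± 0.90, edgeR adjusted p = 0.0255). Without normally-fed replicates 1 and 2 or high-intake-fed replicate 1 that p was 0.0757, 0.0596 and 0.0749. The high-intake-fed values of CYP7A1 rested on 7, 39 and 7 counts. SLC51A, a subunit of the organic solute carrier of the basolateral membrane, stood at 193, 222 and 152 CPM against 53.1, 36.7 and 105.3 CPM (edgeR adjusted p = 0.103). A bile acid-CoA ligase matched by enzyme number, which also matched SLC27A2, stood at 189.6, 194 and 192 CPM against 77.3, 73.4 and 127 CPM (edgeR adjusted p = 0.101). A model of the organic anion transporting polypeptide family, matched by family, stood at 10.5, 10.7 and 8.37 CPM against 6.81, 3.55 and 6.13 CPM (edgeR adjusted p = 0.200). In these 4 models, taken for the lowest p of the list, the groups did not overlap and the high-intake-fed birds were lower. Of the 16 tested, 9 were lower and 0 higher without overlap, where 13.3% and 11.1% of all mRNAs tested were. The log2 fold change was below 0 in 14 and above it in 2. Many of these 16 were models of the organic anion transporting polypeptide family, so the list values are in large part those of that family. NR0B2 was higher with overlap (log2 fold change 1.62 ± 0.63, edgeR adjusted p = 0.227).

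Of the sterol and phospholipid export partners, 14 of 22 entries matched and 0 of 29 models tested passed. Their median log2 fold change was 0.23. In either direction, 7 had an unadjusted p under 0.05, where 9.71% of all mRNAs tested were lower and 8.67% higher. The model with a lecithin:cholesterol acyltransferase domain, the enzyme that esterifies lipoprotein cholesterol, was at 381, 570.0 and 305 CPM against 147, 208 and 235 CPM, lower without overlap. MTTP, which loads lipid onto apolipoprotein B, was at 576, 647 and 866 CPM against 1590.1, 2399 and 843 CPM, and overlapped through high-intake-fed bird 3. An apolipoprotein A1/A4/E model was at 8936, 7814 and 5762 CPM against 14699, 12151 and 32862 CPM, and a START-domain model at 19.8, 11.3 and 18.7 CPM against 70.0, 78.2 and 15.8 CPM. This apolipoprotein model did not overlap and the START-domain model did. A second apolipoprotein A1/A4/E model on the same scaffold stood at 3522, 2871 and 3211 CPM against 3308, 1729 and 3918 CPM and overlapped. Its log2 fold change was -0.10 ± 0.38. Many of the 29 models tested in this list were START-domain models, matched as a family.

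Of the peroxisome list, 21 of 33 entries matched, and of 25 models tested 2 rose and 0 fell, with a median log2 fold change of 0.34. PEX16, which places membrane proteins in the peroxisome, rose from 33.3, 28.5 and 32.1 CPM to 63.3, 57.5 and 72.8 CPM (log2 fold change 1.04 ± 0.19, edgeR adjusted p = 0.0459). The import receptor PEX5, matched by family, rose from 20.4, 12.7 and 17.5 CPM to 78.7, 78.6 and 35.0 CPM (1.93 ± 0.35, edgeR adjusted p = 0.0459). PEX11, a factor of peroxisome division, was at 4.31, 5.37 and 4.83 CPM against 39.7, 9.07 and 23.7 CPM and did not pass (edgeR adjusted p = 0.0646). The model next by p, the bile acid-CoA ligase also matched as SLC27A2, was lower without overlap (log2 fold change -1.05 ± 0.27, edgeR adjusted p = 0.101). Of the 25 models tested, 5 were higher and 4 lower without overlap, where 11.1% and 13.3% of all mRNAs tested were. Catalase was among the lower, at 2905, 3160 and 4493 CPM against 1499, 2052 and 1147 CPM (edgeR adjusted p = 0.150). The PEX16 and PEX5 calls were kept without high-intake-fed replicate 3 and lost without each other bird. Leaving out normally-fed replicates 1, 2 and 3 or high-intake-fed replicates 1 and 2 in turn gave an edgeR adjusted p of 0.157, 0.220, 0.182, 0.0878 and 0.0531 for PEX16. For PEX5 it was 0.127, 0.181, 0.182, 0.0977 and 0.0804.

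Of the mitochondrial haem and iron-sulphur cluster list, 12 of 24 entries matched and 0 of 12 models tested passed, with 4 at an unadjusted p under 0.05 and a median of 0.30. The enzyme of the first step of haem synthesis, matched as ALAS1 by family, was at 32.6, 34.7 and 26.2 CPM against 73.1, 198 and 69.5 CPM (log2 fold change 1.87 ± 0.42, edgeR adjusted p = 0.0786). ALAD, of the next step, was at 27.0, 33.1 and 23.96 CPM against 40.3, 79.0 and 59.0 CPM (1.08 ± 0.28, edgeR adjusted p = 0.103). PPOX (0.84 ± 0.28) and the cluster scaffold ISCU (0.76 ± 0.26) were also higher in all 3 high-intake-fed birds, without passing. These 4 models were taken for the lowest p of the list. Of the 12 tested, 5 were higher and 0 lower without overlap, where 11.1% and 13.3% of all mRNAs tested were.

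Of the conjugation enzymes, 6 of 7 entries matched, 4 of them by family, and of 27 models tested 1 fell and 0 rose, with a median of -0.23. The one that fell was a glutathione transferase of the alpha class, at 118, 113 and 176 CPM against 34.2, 39.6 and 50.3 CPM (log2 fold change -1.71 ± 0.27, edgeR adjusted p = 0.0288). Leaving out normally-fed replicates 1, 2 and 3 or high-intake-fed replicates 1 and 2 in turn gave 0.0842, 0.0887, 0.133, 0.0806 and 0.0576. A second transferase of that class on the same scaffold was at 332, 307 and 496 CPM against 93.1, 94.9 and 213 CPM (edgeR adjusted p = 0.112). A gamma-glutamyl transferase model, matched as GGT1 by enzyme number and described as glutathione hydrolase 5, stood at 63.9, 64.8 and 64.3 CPM against 27.9, 43.9 and 26.3 CPM (edgeR adjusted p = 0.0950) and a sulphotransferase of type 1C3 at 218, 231 and 243 CPM against 64.1, 149 and 62.2 CPM (edgeR adjusted p = 0.122). In these 4, again taken for the lowest p of the list, every high-intake-fed bird was lower. Of the 27 tested, 8 were lower and 0 higher without overlap, where 13.3% and 11.1% of all mRNAs tested were. Most of the 27 were models of the glutathione transferase, sulphotransferase and UDP-glucuronosyltransferase families, each matched as a whole.

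The tissue carried hepatocyte mRNAs at high level. The albumin family model kept, the one with the most counts, held 163663 to 242616 CPM in normally-fed and 70715 to 181670 CPM in high-intake-fed geese. Of 6 hepatocyte models tested, 0 passed and 3 had an unadjusted p under 0.05, where 9.71% of all mRNAs tested were lower and 8.67% higher. The transferrin, fibrinogen gamma and AHSG models were lower without overlap, and the albumin and APOB models overlapped. The apolipoprotein A1 model, which is the first apolipoprotein A1/A4/E model above, was higher without overlap. The marker lists of other cells matched only in part: 3 of 8 entries for cholangiocytes, 2 of 9 for macrophages, 2 of 9 for erythrocytes and thrombocytes, 3 of 8 for stellate cells, 3 of 8 for endothelium and 0 of 8 for lymphocytes. Those for macrophages and for erythrocytes and thrombocytes were matched by family only. Their summed levels in normally-fed against high-intake-fed birds were 11.98 to 18.8 against 6.32 to 20.6 CPM for cholangiocytes, 311 to 369 against 235 to 327 CPM for macrophages and 179 to 258 against 143 to 174 CPM for endothelium. The haemoglobin models kept were at 205 to 362 against 536 to 874 CPM in sum. The stellate cell models were at 243 to 307 against 132 to 189 CPM. Neither of these sums overlapped between the groups, nor did that of endothelium. The stellate cell sum was carried by DCN (217 to 288 against 100.6 to 161 CPM), while LUM was higher without overlap (1.55 to 5.31 against 5.84 to 6.499 CPM) and DES overlapped. The endothelial sum moved with LYVE1 (76.7 to 128.9 against 45.2 to 64.8 CPM), and PECAM1 and KDR overlapped. The cholangiocyte sum was mostly SPP1, which overlapped, while EPCAM was lower without overlap (3.01 to 3.54 against 1.76 to 2.22 CPM). No marker passed the test, and the part of these cells in the differences of the ABC members was not tested.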

How the data were processed

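The authors prepared 1 liver RNA library per bird after removal of ribosomal RNA with probes, removed remaining ribosomal reads with Bowtie2 and aligned the rest to the goose genome with HISAT2. The processing notes also name FastQC and BWA. The study names HTSeq in its sentence on gene ontology and StringTie in its long noncoding and circular RNA workflows. Which program made the mRNA counts, the build, the annotation version and whether strand was used were not found in the sources used here, so overlapping models and near-identical copies are uncertain. The authors deposited raw counts and FPKM per gene model. The members and lists were chosen with earlier results of these data known.

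Counts were tested with edgeR 4.0.16 (R 4.3.3): filterByExpr, TMM library factors (0.906 to 1.15), quasi-likelihood test, Benjamini-Hochberg adjustment over all 12914 mRNAs tested and a threshold of 0.05. Standard errors are the log2 fold change over the square root of F. The deposited FPKM values were used only to check directions, which matched for 42 of the 43 tested members. Values per bird were given for members called, with an unadjusted p under 0.05, among the 10 highest per kb of coding length, or with a description that allows a lipid, bile salt or peroxisomal role. From each of the 5 partner lists, the 4 models with the lowest p were taken. The other members were described after their values were seen, to account for the rest, and 1 member is not reported here. Lists were matched by gene name, by family, or by enzyme number where stated. Entries that name a family or several genes kept every model matched. Each other entry kept only the matched model with the most counts, and its other matches were not examined. Family alone gave 2 of 11 matched entries for bile acid and 6 of 14 for sterol. It gave 6 of 21 for peroxisome and 2 of 12 for haem. Among markers it gave 4 of 6 for hepatocytes and all of those for macrophages, erythrocytes and thrombocytes. These are counts of entries, and a single family entry could supply many of the models tested. Alternatives were other size factors, filters, limma 3.58.1, DESeq2 1.42.0, a replicate block and leaving out each bird. The edgeR script was tested on simulated data.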

Additional observations from a re-analysis of the deposited data

How the results depend on the processing

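Of 334 alternative values for 24 named members, 310 kept direction and side of the threshold, 13 passed it newly, 7 lost it (the White pair) and 4 reversed. Only the White pair was called by the main test, with 14 alternatives for each of its 2 models. For the other members, keeping the side meant staying uncalled, so the 310 do not measure how firm a call is. With 1 bird left out, log2 fold changes ran from -0.73 to 0.16 for ABCB4 and -0.59 to 0.0945 for the ALDP-type model of scaffold 6. The reversals were ABCB4 without normally-fed replicate 3 (log2 fold change 0.16) and the ALDP-type model of scaffold 6 without normally-fed replicate 1 (0.0055) or high-intake-fed replicates 1 and 2 (0.07 and 0.0945). Over all mRNAs, the 83 higher and 107 lower calls became 168 and 167 without the filter, 451 and 493 with DESeq2, 550 and 688 at over 2-fold with an unadjusted p under 0.05, and 10 to 312 and 20 to 199 with 1 bird left out. Of the members, 0 higher and 2 lower became 1 and 2 without the filter, 1 and 6 with DESeq2, 1 and 4 by the fold rule, and 0 to 0 and 0 to 6 with 1 bird left out. The lower count was 3 with library sizes unscaled, summed without the 20 most abundant mRNAs, or at least 10 counts in every library. There the peroxisomal model of scaffold 1 joined. The ends 312, 199 and 6 of the ranges with 1 bird left out came without high-intake-fed replicate 3. Any other bird left out gave 10 to 66 higher and 20 to 95 lower mRNAs, and 0 or 1 lower members.

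In the partner lists, leaving out 1 bird gave 0 to 3 lower for bile acid, 0 to 2 lower for conjugation, 0 to 2 higher for haem, 0 to 3 higher for sterol, and 0 to 2 higher and 0 to 1 lower for peroxisome. DESeq2 gave 3 lower for bile acid, 5 lower for conjugation, 2 higher for haem, 3 higher and 1 lower for sterol and 3 higher and 2 lower for peroxisome. The fold rule gave 1 higher and 4 lower for bile acid, 5 lower for conjugation, 2 higher for haem, 4 higher and 1 lower for sterol, and 4 higher and 2 lower for peroxisome. The haem list had 1 higher without the filter, and the peroxisome list 1 higher with limma or with either other library size. The bile acid list had 0 lower at 10 counts in every library. That filter left out CYP7A1, with 7, 39 and 7 counts in the high-intake-fed birds, so the gene was not tested there. The cause of the other moves was not tested.

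Deviations of same-numbered birds correlated at -0.11, 0.02 and -0.15, and those of different-numbered birds at -0.07 to 0.18. No pairing by replicate number was seen, but 3 birds per group cannot exclude one. The study names paired Student's t-tests without giving the pairs. By its account, geese were put into the groups and picked for sequencing at random, and it describes no matching of birds. A block by replicate number is therefore arbitrary as far as the sources tell. With replicate number as a block, 23 mRNAs were higher and 38 lower, and 1 member was lower (the minus-strand White model). The peroxisomal model of scaffold 1 then had an edgeR adjusted p of 0.172. The peroxisome and conjugation lists then had 0 higher and 0 lower calls.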
